A study of Homo sapiens with 12 samples.

Results

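Within 3 of the 4 treatment groups of an array study of HD-MyZ cells, 1 of the 3 arrays stood apart from the other two: control C, sorafenib B and combination A, 3 arrays of 12. They were chosen from the measured values, because each correlated less well with its group mates than the mates did with each other. HD-MyZ is an established line from a patient with Hodgkin lymphoma. The cells were grown for 24 hours with no drug (control), with 10 µM perifosine, with 5 µM sorafenib, or with both drugs (combination), and total RNA was labelled for Illumina bead arrays, 3 arrays a group. Perifosine is an alkylphospholipid that inhibits AKT, and sorafenib is a multikinase inhibitor. The letters A, B and C are those of the sample titles, and the labels do not say whether the arrays of a group came from separate flasks. P-values therefore measure the spread between these arrays, which may be technical. The 6 mates were control A and B, sorafenib A and C, and combination B and C, while the 3 perifosine arrays took no part in the choice.

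The deviation of an array is its log2 intensity for a gene minus the mean log2 intensity of its 2 mates, so that treatment is held constant and each deviation uses different arrays. A gene was counted as lower where each of the 3 arrays lay below both of its mates and at least 1.5-fold below their mean, and as higher where the same held upward. The mean of the 3 deviations is given ± SD (n = 3 arrays, 1 from each group). Since measured values chose the arrays, these values are a description and carry no test. The lowest deposited intensity was 170, and whether background was subtracted is not given in the sources used here. Differences of dim genes are therefore likely understated. Intensities reached at most 71906, and differences of genes near that ceiling are understated as well.

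Many of the genes named below fall into a few families. Of the 545 genes counted as lower, 141 were in at least 1 of the 43 gene lists read, so most were in none. Oxidative phosphorylation uses the respiratory complexes of the inner mitochondrial membrane to pump protons, and ATP synthase to make ATP from the gradient. Its complexes combine a few large catalytic subunits with many small accessory ones, most of them encoded in the nucleus. Metallothioneins are small cysteine-rich proteins that bind zinc and copper, and their genes are switched on by the zinc sensor MTF1 through metal response elements. Ribosomal proteins of the cytosol and of the mitochondrion, and the Sm and LSm proteins of the spliceosome, are likewise small proteins that are made in large amounts.

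The 3 arrays shared 545 lower genes, 2.89% of 18852 genes, and 43 higher genes, 0.228% of them. Nothing is read from these shares, since the same contrast chose the arrays. Among the 545 lower genes the mean deviation had a median of -1.21 and extremes of -2.25 and -0.62, and 422 of them averaged at least 2-fold below the mates. The 43 higher genes spanned a narrower range, from 0.69 to 1.06, with a median of 0.84. At a threshold of 2-fold in each array, 221 genes were lower and 0 were higher. The number of higher genes was 207 without control C and 215 without combination A. The rule then asks less of a gene, so these counts can only rise, and nothing is read from the rise. It was 67 without control B or without combination C as a mate. The number of lower genes ranged from 502 to 788 when single arrays were left out, and its upper end, without control C, arose in the same way.

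Sorafenib B deviated most. Its log2 intensities correlated with those of its mates at Pearson r = 0.962 and 0.965 across genes, against 0.994 between the mates. Control C correlated with its mates at 0.984 and 0.986, and combination A at 0.983 and 0.986, while their mates correlated with each other at 0.994 and 0.993. Sorafenib B alone had 2143 lower genes (11.4%) and 2363 higher genes (12.5%) by the same fold and the same requirement against its own mates. Control C alone had 876 lower (4.65%) and 452 higher (2.4%), and combination A alone 923 lower (4.9%) and 370 higher (1.96%). The median deviation of the 545 lower genes was -0.98 in control C, with -1.55 in sorafenib B and -1.11 in combination A, against 0.01, 0.01 and 0.02 over all genes. Most of what was low in control C or combination A was thus low in all 3 arrays, while sorafenib B had 1219 lower and 1984 higher genes shared with neither.

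Across the 18852 genes the deviations of control C and sorafenib B correlated at r = 0.60, those of control C and combination A at 0.61, and those of sorafenib B and combination A at 0.67. Over the 9587 genes whose mean log2 intensity was 9 or more the values were 0.67, 0.74 and 0.75. These are correlations across genes, which are not independent replicates, and no array enters more than 1 deviation. Genes near background contributed little to the shared deviation: 1 of 9265 genes below a mean log2 intensity of 9 was lower, against 109 of 4001 between 9 and 11, 204 of 3560 between 11 and 13, and 231 of 2026 above 13.

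**Figure D1:**
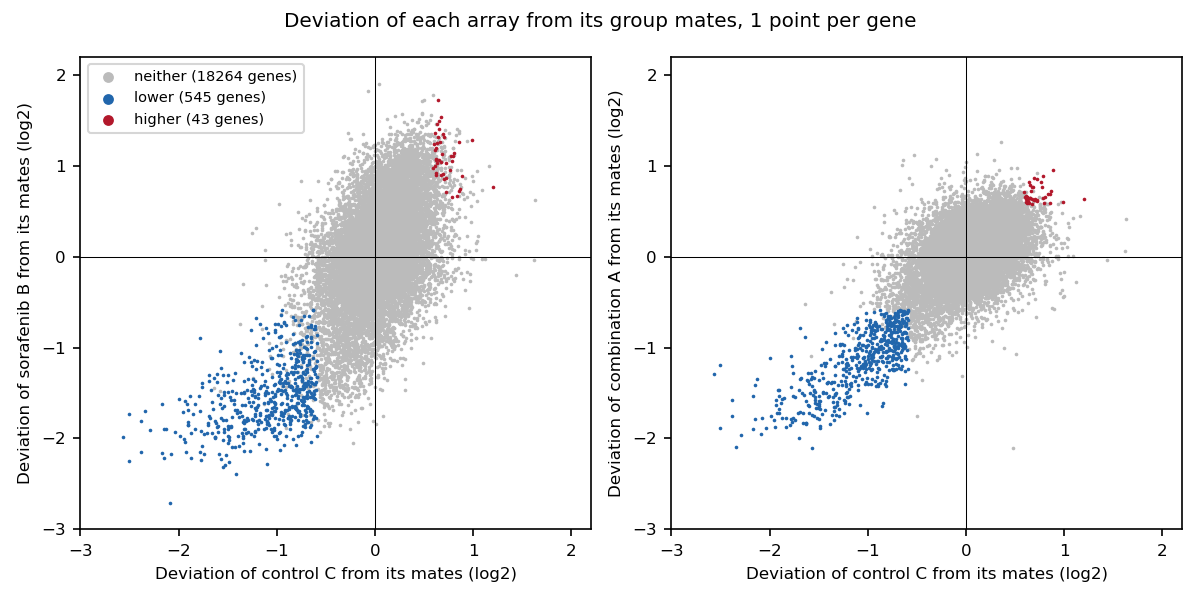
Deviation from the group mates on the log2 scale, 1 point per gene, for sorafenib B (left) and combination A (right) against control C, with the 545 lower genes in blue and the 43 higher genes in red. The blue points reach deviations below -2 on both axes, and the cloud of grey points tilts the same way.

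Oxidative phosphorylation was covered by 5 lists, of which complex I held the most lower genes, 21. Among the other lists, cytosolic ribosomal proteins held 23 and mitochondrial ribosomal proteins 22. Of 71 nuclear-encoded oxidative phosphorylation subunits measured, pooled over the 5 lists, 42 (59.2%) were lower, beside 2.89% of all genes. Their median log2 intensity was 13.9, and of all genes above 13, 11.4% were lower. Of the 71, 0 were higher, from which nothing is read, since 0.228% of all genes were. These shares bear on the lists below as well, and nothing is read from a count near them, such as 0 in a short list. The median mean deviation of the 71 subunits was -1.09 against 0.01 over all genes. The median of these subunits was -0.95, -1.28 and -0.99 in control C, sorafenib B and combination A. The gene with the lowest mean deviation of all was NDUFA13, an accessory subunit of complex I, the NADH dehydrogenase. Its intensity was 11752, 11642 and 2757 in control A, B and C, 14133, 2082 and 13086 in sorafenib A, B and C, and 3162, 13483 and 11179 in combination A, B and C. The perifosine arrays read 11321, 9525 and 12488. The 3 low values lay between 2082 and 3162, below every one of the 9 others, and the mean deviation was -2.25 ± 0.40.

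In complex I, 21 of 33 subunits were lower (median -1.13). NDUFA3 (-2.09 ± 0.32), NDUFA11 (-1.89 ± 0.33) and NDUFB11 (-1.82 ± 0.18), all accessory subunits, followed NDUFA13. In complex IV, cytochrome c oxidase, 9 of 11 subunits were lower (median -1.33). COX8A, a small subunit of complex IV, read 53334, 51158 and 17816 in the control arrays, 56358, 14137 and 57976 in the sorafenib arrays, and 15919, 61395 and 46822 in the combination arrays. The 3 perifosine arrays, at 52208 to 54157, lay with the mates, and again the low and the high values did not overlap. COX6A1 (-1.71 ± 0.34), COX5B (-1.68 ± 0.12) and COX6B1 (-1.49 ± 0.17) behaved alike. COX17, the copper chaperone that loads complex IV, was also among the 12 lowest genes (-2.05 ± 0.23).

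ATP synthase had 9 of 16 subunits lower (median -1.13), led by ATP5ME (-1.79 ± 0.40), ATP5MC1 (-1.79 ± 0.13), ATP5MC2 (-1.77 ± 0.36) and ATP5MG (-1.76 ± 0.20), which belong to its membrane part. Complex III had 3 of 8 lower: UQCR10 (-1.75 ± 0.17), UQCRB (-1.48 ± 0.15) and UQCRQ (-1.40 ± 0.19). In complex II, succinate dehydrogenase, 0 of 3 measured subunits were lower (median -0.11). The enzymes of the tricarboxylic acid cycle, in the same organelle, had 0 of 14 members lower and 0 higher (median 0.03). With 2.89% of all genes lower, nothing is read from the counts of 0 in these 2 short lists. The list of mitochondrial import factors had 6 of 21 lower, with PAM16 (-1.51 ± 0.27), TIMM10 (-1.47 ± 0.27), TIMM17B (-1.31 ± 0.40) and TOMM7 (-1.30 ± 0.27) the lowest.

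Within single complexes the subunits did not deviate alike. The grouping by role was made after the values were seen. In ATP synthase the membrane part had 6 of 8 subunits lower (median -1.75), the peripheral stalk 2 of 4 (median -0.90), and the catalytic F1 head with its central stalk 1 of 4 (median -0.15). The median of the head is not read against that of the membrane part, because ATP5F1A and ATP5F1B, the alpha and beta subunits, read at least 57883 and 65581 in every array and lie near the ceiling. Of the other two, ATP5F1D was lower (-1.21). ATP5F1C, the gamma subunit, read 16599, 17673 and 17512 in the control arrays, 15052, 8068 and 15511 in the sorafenib arrays, and 14547, 16381 and 16029 in the combination arrays. It was thus between the mates in control C, far below them in sorafenib B, and slightly below them in combination A. In complex III, 0 of the 3 core proteins and cytochrome c1 were lower (median -0.22), against 3 of the 5 other subunits (median -1.40). In complex I the split was smaller, at 3 of 6 catalytic core subunits (median -0.99) and 18 of 27 accessory ones (median -1.14). In RNA polymerase II, the 2 large catalytic subunits POLR2A and POLR2B were not lower (median 0.45), whereas 4 of 9 other measured subunits were (median -0.86).

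**Figure D2:**
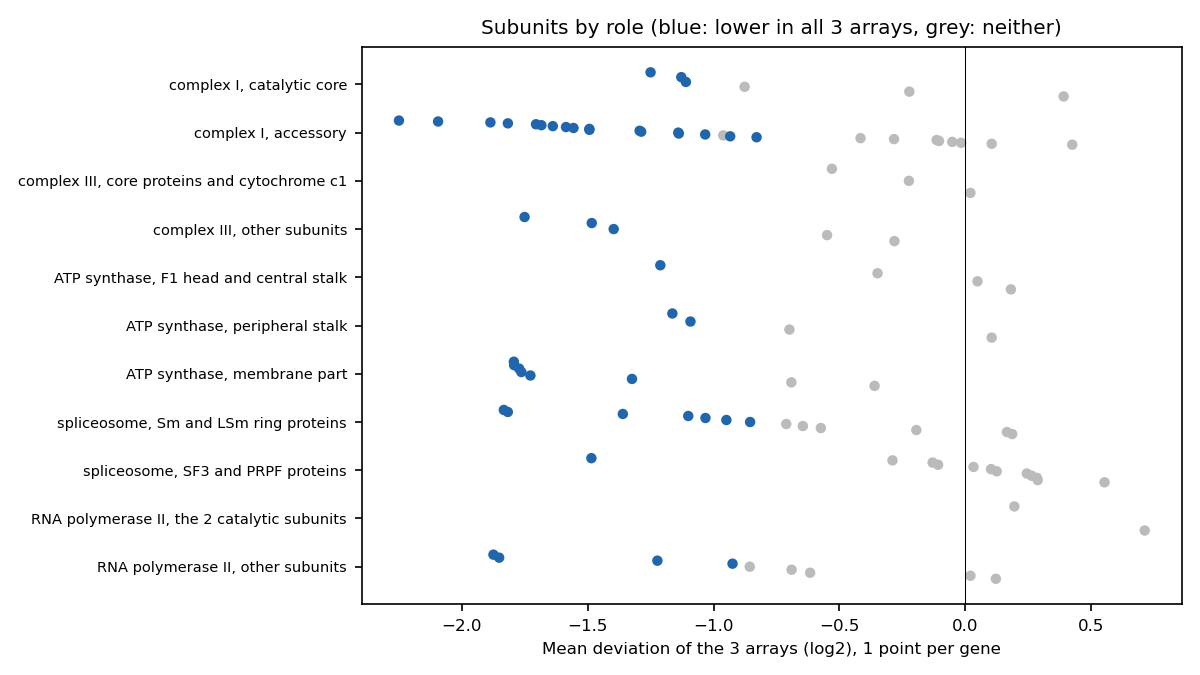
Mean deviation of the 3 arrays on the log2 scale for every measured subunit of 5 assemblies grouped by role, 1 point per gene, blue where the gene was lower in all 3 arrays and grey otherwise. The membrane part of ATP synthase, with 6 of 8 subunits in blue, reaches lower values than its peripheral stalk, with 2 of 4.

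The metallothioneins had a median mean deviation of -1.26. Of 11 measured genes, 6 were lower, beside 2.89% of all genes, and the other 5 were either near background or near the ceiling. MT1X read 56265, 55878 and 11020 in the control arrays, 51779, 15772 and 50418 in the sorafenib arrays, 9884, 54989 and 32288 in the combination arrays, and 55791, 56613 and 55240 in the perifosine arrays. Its 3 low values lay below all others, but combination C, a mate, was itself well under combination B. MT1M, at -2.21 ± 0.31, had the second lowest mean deviation of all genes, reading 12859, 14447 and 2406 in the control arrays. MT1F (-1.92 ± 0.42), MT1H (-1.77 ± 0.34), MT1E (-1.66 ± 0.24) and MT1G (-1.26 ± 0.31) completed the 6. Paralogues of this family are near-identical in sequence, so that a probe may read more than 1 of them.

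MT2A, another metallothionein, read 45388, 53933 and 52150 in the 3 arrays in that order, and 63770 to 70281 in the 9 others. Its groups did not overlap, but with a deviation of -0.44 ± 0.14 near the ceiling it missed the 1.5-fold threshold. MT1B, MT3, MT4 and MT1L read between 199 and 404 in every array, near background, with mean deviations between -0.19 and 0.06. Of the genes that sense and move zinc, 0 of 13 were lower, from which nothing is read beside 2.89% of all genes. Their median mean deviation was 0.40. MTF1, the zinc sensor, deviated by -0.39, and SLC30A1, a zinc exporter that MTF1 also controls, by 0.35. Whether zinc had a part in the values of this family was not tested.

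Upstream sequences are shown for the 3 metallothioneins whose entries were in the RefSeq promoter table and whose probes read above background, since these genes share a known regulator. Each is the 250 bases before the annotated start on the plus strand of GRCh38.p14, at chr16:56682220-56682469, chr16:56669564-56669813 and chr16:56608334-56608583, printed 5′ to 3′ with every match to the metal response element core TGCNCNC, on either strand, in capitals. Overlapping matches were allowed.
MT1X: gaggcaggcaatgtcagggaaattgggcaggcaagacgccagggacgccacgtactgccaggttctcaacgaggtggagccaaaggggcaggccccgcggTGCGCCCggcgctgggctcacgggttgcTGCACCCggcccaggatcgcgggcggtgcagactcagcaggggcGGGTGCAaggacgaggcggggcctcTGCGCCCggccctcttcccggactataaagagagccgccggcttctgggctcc
MT1H: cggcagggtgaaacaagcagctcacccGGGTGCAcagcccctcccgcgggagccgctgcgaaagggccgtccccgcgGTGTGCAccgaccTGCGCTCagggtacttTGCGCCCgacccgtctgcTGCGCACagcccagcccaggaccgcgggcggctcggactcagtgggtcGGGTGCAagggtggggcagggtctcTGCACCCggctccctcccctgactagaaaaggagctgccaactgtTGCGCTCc
MT2A: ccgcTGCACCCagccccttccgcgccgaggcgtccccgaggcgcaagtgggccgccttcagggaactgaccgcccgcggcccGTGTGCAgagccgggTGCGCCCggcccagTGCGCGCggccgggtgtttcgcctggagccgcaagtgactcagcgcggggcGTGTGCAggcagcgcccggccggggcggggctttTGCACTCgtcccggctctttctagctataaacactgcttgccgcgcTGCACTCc
MT1X held 4 matches, MT1H 8 and MT2A 7. All 5 metallothioneins found in the table, of the 11 measured, held at least 3 matches, as did 5.74% of all 27305 promoters of the table. MT1B and MT4, which read near background in every array, held 5 each. A match to these letters is a description and not a binding site.

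The upstream bases of all lower genes were set beside those of all expressed genes. Of the 545 lower genes, 442 (81.1%) had an entry, and 55.4% of these held TGCNCNC at least once, against 56.1% of the 7940 matched genes whose mean log2 intensity was 9 or more. CCAAT was found in 36.0% against 36.2%, and TATAAA in 6.56% against 5.08%. The ETS core CGGAAG was found in 35.3% against 29.7%, and GCGCATGC, the core of the site of NRF1, a transcription factor of many respiratory genes, in 8.14% against 5.23%. Among the 60 matched oxidative phosphorylation genes 10 held GCGCATGC, or 16.7%. Both strands were searched for each motif, overlaps were allowed, and over all promoters of the table the shares were 48.4%, 33.0%, 11.1%, 16.8% and 2.81% in the order given. The median GC content of the upstream bases was 62.8% for the lower genes and 64.8% for the expressed genes.

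Both sets of ribosomal proteins held lower genes, beside 2.89% of all genes and 11.4% of those above a mean log2 intensity of 13. Of 47 mitochondrial ribosomal proteins 22 were lower (median -0.97), with MRPL54 (-1.83 ± 0.41), MRPL41 (-1.81 ± 0.12), MRPL23 (-1.81 ± 0.40) and MRPS24 (-1.68 ± 0.21) the lowest. Of 69 cytosolic ribosomal proteins 23 were lower (median -0.38), many of the others reading near the ceiling: the median log2 intensity of the list was 15.8. RPS21, a small-subunit protein, read 29005, 27216 and 6846 in the control arrays, 27448, 7367 and 28613 in the sorafenib arrays, and 5418, 24711 and 16243 in the combination arrays. Combination C again lay between, nearer to combination B. RPL36A (-1.85 ± 0.15), RPS26 (-1.72 ± 0.03) and FAU (-1.71 ± 0.14), which encodes a ubiquitin-like protein fused to RPS30, were next. Many ribosomal protein genes have processed pseudogenes, and their probes may read these too. The translation factors had 1 of 30 lower (3.33%), near the share of all genes, and a median of 0.04.

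Splicing factors had mean deviations on both sides of 0, but 0 of them met the rule for higher genes. Of all genes, 2.89% were lower and 0.228% higher. Of 31 core spliceosome proteins 10 were lower: SNRPF (-1.83 ± 0.06), LSM7 (-1.82 ± 0.32), SF3B5 (-1.49 ± 0.55) and LSM3 (-1.36 ± 0.21) had the lowest values. Grouped by role after the values were seen, 7 of 13 Sm and LSm ring proteins were lower (median -0.85), against 1 of 12 SF3 and PRPF proteins (median 0.11). The SR proteins and hnRNPs, which bind exons and introns to steer splice choice, had 0 of 23 lower. Of those 23, 19 had a mean deviation above 0, with a median of 0.39, beside 9969 of all 18852 genes, and SRSF6 had the highest mean deviation (0.90), although none met the rule for higher genes.

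Histone genes of the replication-dependent kind, whose mRNAs end in a stem-loop and mostly lack a poly(A) tail, had 5 of 16 lower (median -0.51). Of all genes, 2.89% were lower and 0.228% higher. H4C3 read 68454, 61502 and 18920 in the control arrays, 71136, 14830 and 61249 in the sorafenib arrays, and 12070, 63115 and 27397 in the combination arrays. H2AC18 (-1.70 ± 0.11), H1-2 (-1.22 ± 0.22) and H2BC5 also met the rule. Histone genes of a class are near-identical, so these probes may read neighbouring copies. Of 35 genes of mitosis 2 were lower, UBE2C and PTTG1, and nothing is read from that count beside the share of all genes. The mean deviation was above 0 for 30 of the 35 (median 0.34), beside 9969 of all 18852 genes (median 0.01). HMMR, at 0.84, had the highest mean deviation of that list. In DNA replication, MCM6, a subunit of the replicative helicase, was the 1 gene of 36 that was higher, and 0 were lower.

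Among short noncoding RNAs, 1 was in the set of the 12 lowest genes. SNORD13, a small nucleolar RNA that takes part in the modification of 18S ribosomal RNA, read 9799, 7639 and 1457 in the control arrays, 11424, 3506 and 16849 in the sorafenib arrays, and 2846, 12650 and 3860 in the combination arrays. The perifosine arrays read 9419 to 9638. Combination C was thus close to combination A, not to its fellow mate combination B. SCARNA9, a guide RNA of Cajal bodies, deviated by -1.68 ± 0.22, RN7SK, the RNA that holds the elongation factor P-TEFb inactive, by -1.10 ± 0.12, SNORD68 by -0.89 ± 0.31, and SNORD33 by -0.86 ± 0.14. These were the 5 lower genes among the 72 measured genes that RefSeq classes as snoRNA, snRNA, scRNA, RNase P RNA, telomerase RNA or other ncRNA. Direction was not uniform: of 34 snoRNAs whose mean log2 intensity was 9 or more, 19 had all 3 deviations below 0 and 10 had all 3 above 0. SNAR-A1 read 12595 in combination A and 12054 in combination C, against 59958 in combination B. It therefore missed the rule, although control C (23305) and sorafenib B (21235) lay far below their mates (56421 to 70440).

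Immune and secretory lists held some lower genes, beside 2.89% of all genes. They held 0 higher ones, from which nothing is read, since 0.228% of all genes were higher. Of 27 interferon-responsive genes 6 were lower (median -0.06): IFITM3 (-1.81), ISG15 (-1.68), IFITM2 (-1.66), PSMB9 (-1.25), ISG20 (-0.87) and IFI6 (-0.67). IFITM3, which blocks virus entry at membranes, read 10699, 8686 and 3039 in the control arrays, 11154, 2811 and 10413 in the sorafenib arrays, and 2757, 10939 and 8755 in the combination arrays. Other interferon targets had mean deviations above 0 without meeting the rule for higher genes, among them the sensor IFIH1 (0.67) and IFIT2 (0.53). These named members, and those of the next 2 sentences, were chosen after their values were seen. Of 22 ER chaperones and stress genes 3 were lower, SEC61B (-1.54), SSR4 (-1.53) and SDF2L1 (-1.16), while SSR1, another subunit of the complex that holds SSR4, deviated by 0.75 and met neither rule. Of 27 proteasome subunits 2 were lower, PSMB3 and PSMB6. The median log2 intensity of that list was 14.1, and 11.4% of all genes above 13 were lower. MHC class I genes had 0 of 13 lower, with a median of -0.33. Altogether 141 of the 545 lower genes and 3 of the 43 higher genes were in at least 1 of the 43 lists, so that most of them belong to none.

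**Figure D3:**
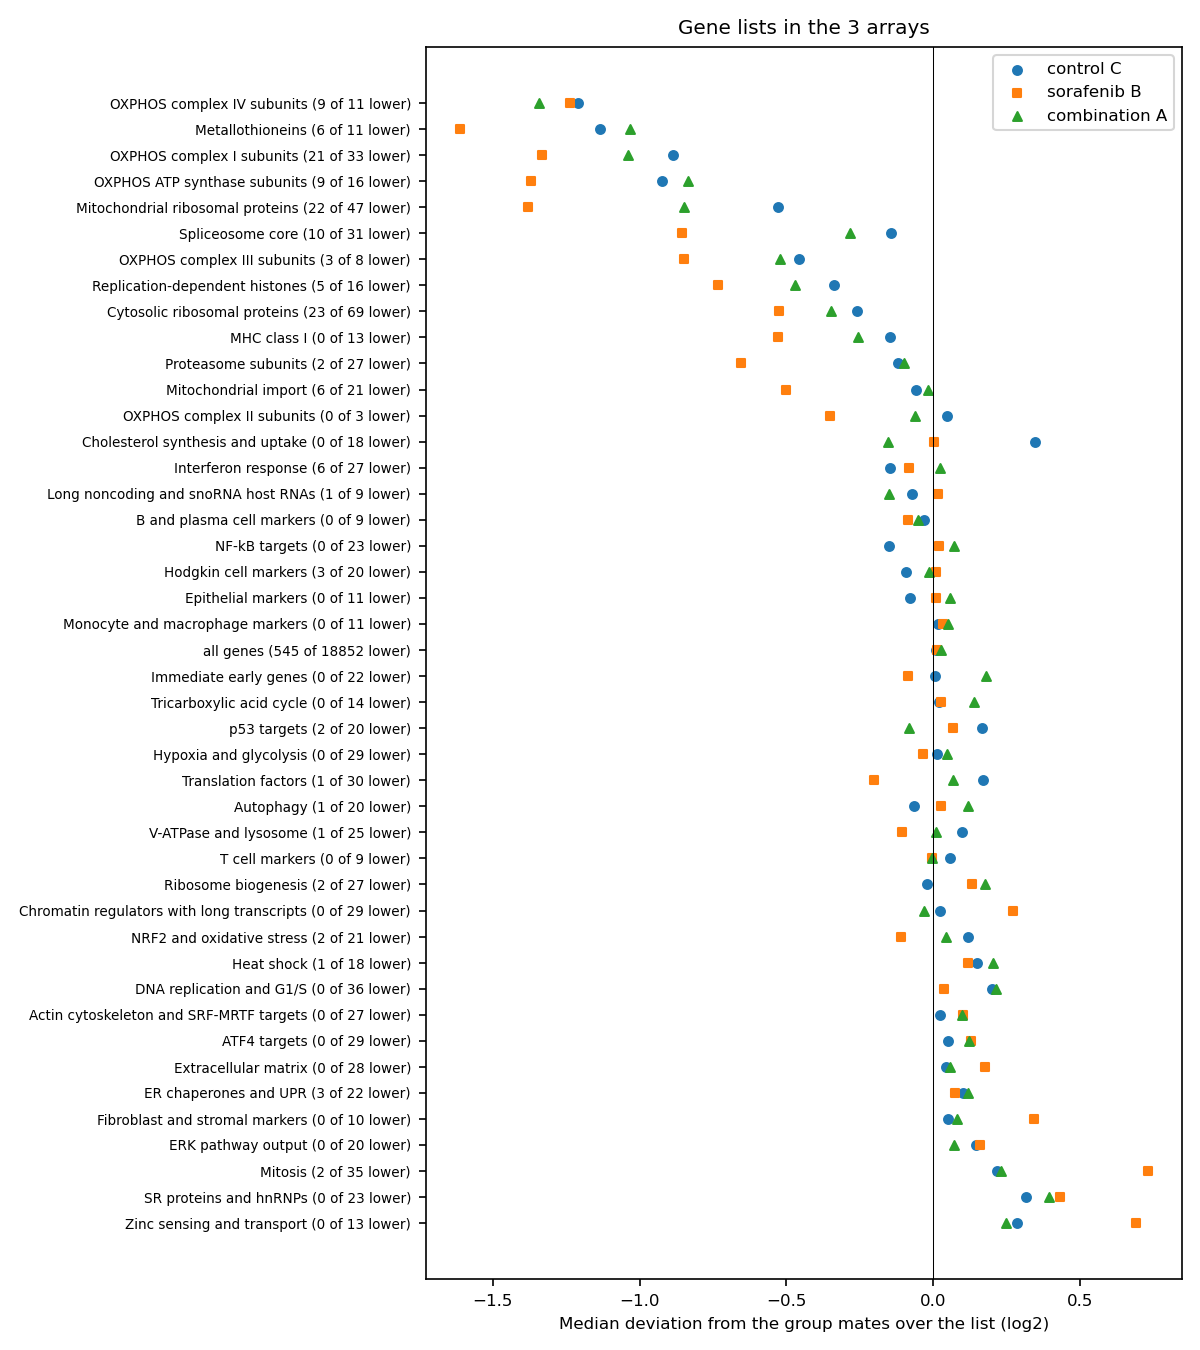
Median deviation on the log2 scale of each gene list in control C (circles), sorafenib B (squares) and combination A (triangles), with the number of lower genes of those measured beside its name. Complex IV, metallothioneins, complex I, ATP synthase and mitochondrial ribosomal proteins lie farthest to the left in all 3 arrays, and the cell type markers lie near 0 except the stromal list in sorafenib B.

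The remaining genes among the 12 lowest encode small proteins of membranes and other compartments. ROMO1, an inner mitochondrial membrane protein linked to reactive oxygen species, deviated by -2.08 ± 0.16. TMEM258, a subunit of the oligosaccharyltransferase of the ER, deviated by -2.06 ± 0.21. DPM3, which anchors dolichol-phosphate mannose synthase in the ER membrane, deviated by -2.01 ± 0.21. TMEM160 (-1.97 ± 0.35) and SERF2 (-1.94 ± 0.07) completed the set. In all 5, the 3 low arrays lay below each of the 9 others.

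Of the 43 higher genes, 3 were on a list. GNG12, a gamma subunit of heterotrimeric G proteins, had the highest mean deviation, 1.06 ± 0.58. It read 8799, 8836 and 13710 in the control arrays, 9693, 33320 and 10452 in the sorafenib arrays, 17172, 9520 and 9826 in the combination arrays, and 7518 to 7699 in the perifosine arrays. Sorafenib B was the highest of the 12. TCEA1, the elongation factor TFIIS (0.99 ± 0.47), and BZW1, a translation regulator (0.98 ± 0.45), came next, again with sorafenib B deviating most. TMPO (0.94 ± 0.29) and LBR (0.90 ± 0.44) encode proteins of the nuclear envelope that bind lamins. DR1 (0.91 ± 0.14) encodes a repressor of the TATA-binding protein, PRKAR1A (0.90 ± 0.48) the regulatory subunit of protein kinase A, and POT1 (0.88 ± 0.33) a telomere protein.

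ZKSCAN8 (0.96 ± 0.34) and ZNF184 (0.89 ± 0.40) encode zinc finger proteins, and BTBD1 reached 0.89 ± 0.37. LRRC58 deviated evenly, by 0.91 ± 0.04, reading 2095, 1656 and 1787 in the 3 arrays against 744 to 1150 in their mates. The higher genes on a list were MCM6 (0.76), MTHFD2 of mitochondrial one-carbon metabolism (0.84) and HSPH1, a heat shock protein (0.76).

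**Figure D4:**
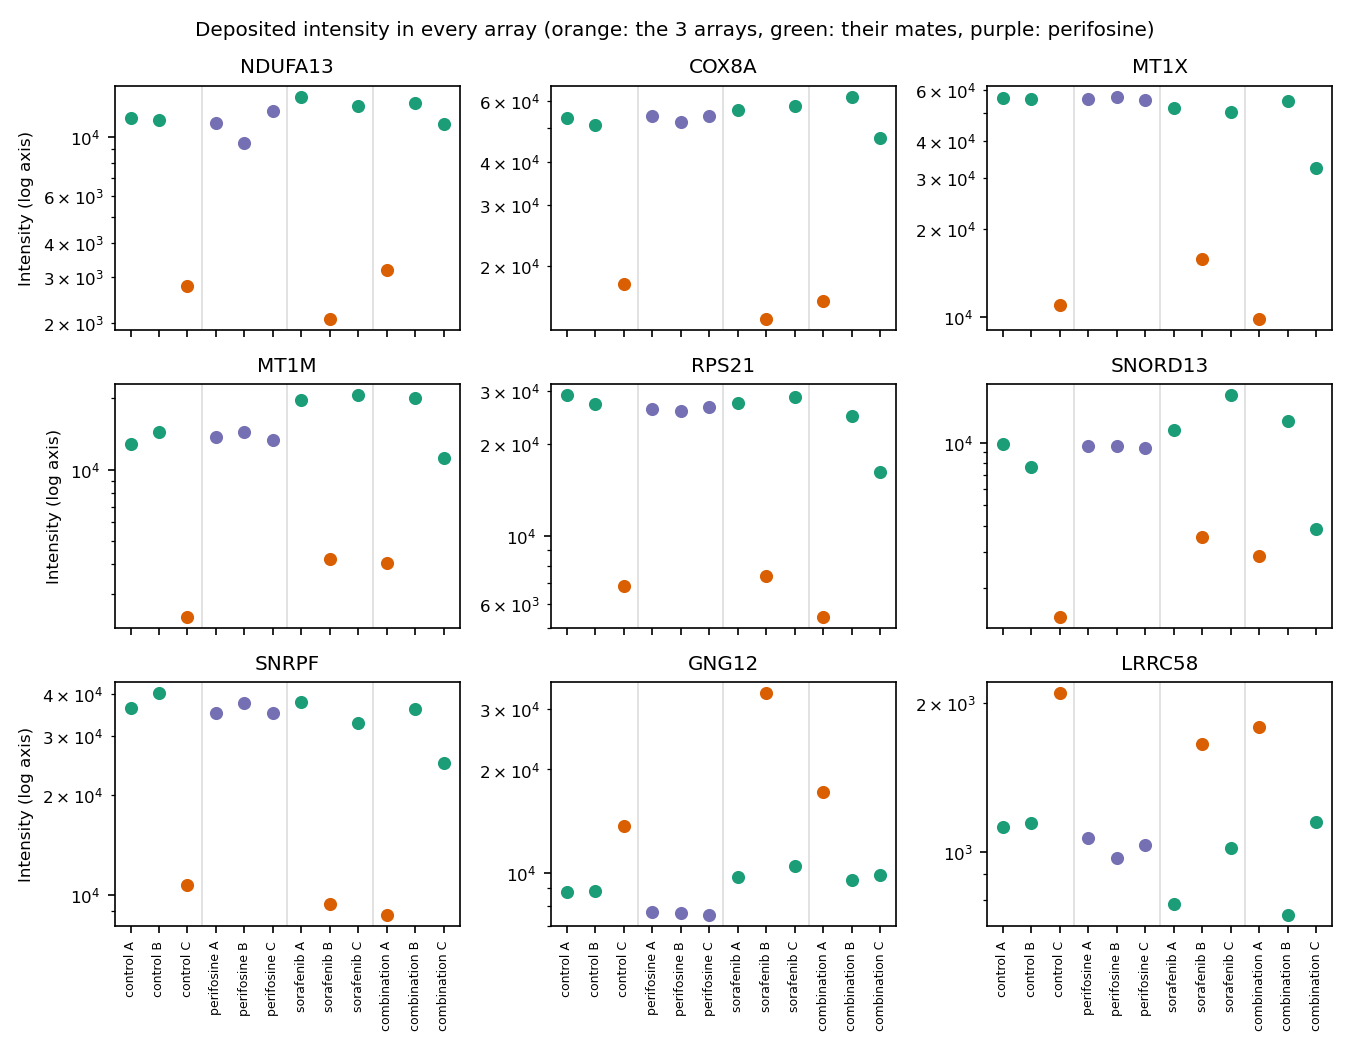
Deposited intensity on a log axis in each of the 12 arrays for 7 lower and 2 higher genes, with control C, sorafenib B and combination A in orange, their mates in green and the perifosine arrays in purple. The orange points do not overlap the green and purple ones in any panel, and combination C is the lowest green point for all 7 lower genes.

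Genes at the border of the rule show how it acted. RPL30, just inside, deviated by -0.63, -0.59 and -0.63 in control C, sorafenib B and combination A. NTMT1, just outside, deviated by -0.58, -1.80 and -1.02, and so was left out for control C alone. Where a lower gene had other probes of its own, these mostly went the same way: of 168 such probes whose mean log2 intensity was 9 or more, 155 had a mean deviation below 0 and 144 were below 0 in all 3 arrays. Of the 168, 91 were at least 1.5-fold below in all 3 arrays. Of 21 such probes of the higher genes, 21 were above 0 in all 3 arrays, but 1 of them passed 1.5-fold in all 3.

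Combination C, although used as a mate, shared part of the deviation. It was below combination B for 480 of the 545 lower genes, by a median of -0.27, and at least 1.5-fold below for 68 of them, or 12.5%, against 1.38% of all 18852 genes. The corresponding differences between the other mates were small, with a median of -0.08 for control B minus control A and -0.04 for sorafenib C minus sorafenib A, and 1 and 5 of the 545 genes at least 1.5-fold below. For metallothioneins the median of combination C minus combination B was -0.35, for oxidative phosphorylation -0.18, and for cytosolic ribosomal proteins -0.05. Among the named lower genes, SNORD13 (-1.71), SCARNA9 (-1.27), H4C3 (-1.20), MT1F (-1.19) and MT1H (-1.11) differed by more than 1 on that scale. Across the 9587 genes whose mean log2 intensity was 9 or more, combination C minus combination B correlated with the mean deviation of control C and sorafenib B, which share no array with it, at r = 0.37. The same measure was 0.24 for the control mates and 0.14 for the sorafenib mates.

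The perifosine arrays showed no such array. Against the mean of its 2 mates, the median difference over the 545 lower genes was -0.003 in perifosine A, -0.03 in perifosine B and 0.04 in perifosine C. Of the 545 genes, 0, 2 and 1 were at least 1.5-fold below the mates in the 3 arrays. In absolute terms the median log2 intensity of the lower genes was 12.93 to 12.96 in the perifosine arrays, 12.84 to 13.08 in the 6 mates, and 11.88, 11.39 and 11.76 in control C, sorafenib B and combination A. The low values thus cut across treatment: they occurred with no drug, with sorafenib and with both drugs, and were absent from the 3 arrays with perifosine alone. With 1 array in each of 3 groups, no relation to treatment can be tested.

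Markers of cell types were read beside the deviation. Of the 20 Hodgkin cell markers, 10 had a mean log2 intensity of 9 or more. TNFRSF8, which encodes the Hodgkin antigen CD30, stood at 8.12 and IRF4 at 8.42, both near background, and PAX5 was no higher, so these defining markers were at background in every group. Of the 20, CD70, BATF3 and LGALS1 were lower. The log2 of the summed intensity of this list was 17.06, 17.10 and 16.77 in control A, B and C, 17.14, 16.78 and 17.09 in sorafenib A, B and C, and 16.87, 17.12 and 17.09 in combination A, B and C. It was 17.08 to 17.12 in the perifosine arrays, so that control C, sorafenib B and combination A were the lowest of the 12. The sum leans on LGALS1, the brightest of the list at a mean log2 intensity of 15.84 and itself a lower gene. Over the list as a whole the median deviation was -0.094, 0.010 and -0.015 in the 3 arrays. The mean deviation was below 0 for 11 of the 20 and above 0 for 9. Markers at or above 9 numbered 0 of 9 for T cells, 1 of 9 for B and plasma cells, 1 of 11 for monocytes and macrophages, and 1 of 11 for epithelium. None of these lists had a lower gene, from which nothing is read, since 2.89% of all genes were lower. The stromal list had 6 of 10 at or above 9, led by COL1A2, and 0 lower. Its median deviation was 0.05, 0.34 and 0.08 in the 3 arrays. The log2 of its summed intensity was 15.28 to 15.52 in the control arrays, 15.05 to 15.27 with perifosine, 16.17 to 16.50 with sorafenib and 16.15 to 16.42 with the combination, and control C, sorafenib B and combination A were each the highest of their group. Over all 12 arrays the same sum ran from 11.43 to 11.59 for T cell markers, 13.41 to 13.85 for B and plasma cells, 13.45 to 14.37 for monocytes and macrophages, and 12.55 to 13.21 for epithelium. The part of these in the deviation was not tested, and the sources used here give no RNA quality value per sample.

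The deviation bears on the comparison of each treatment with control, which used a model of 4 group means in limma with p-values adjusted by Benjamini-Hochberg over 18852 genes. The choice of these genes for a spread within groups bears on every count of them here: it widens their residual in a fit of 12 arrays and narrows it once the 3 arrays are left out. Their counts are therefore given as a description, and nothing is read from them. With all 12 arrays, 0 of the 545 lower genes and 0 of the 43 higher genes were called in any of the 3 comparisons, against 0.297% of all genes for perifosine, 2.25% for sorafenib and 1.82% for the combination. The deviating values enter the residual of these genes, whose median standard error of a log2 change was 0.44, against 0.15 over all genes. Without the 3 arrays it was 0.13 for the perifosine comparison and 0.14 for the other two. In that 9-array fit 5, 33 and 50 of the 545 lower genes were called for perifosine, sorafenib and the combination, 0.917%, 6.06% and 9.17% of them, against 1.55%, 4.65% and 5.9% of all genes. Of the higher genes 2, 2 and 5 were called. This fit keeps combination C, which shared part of the deviation. With all 12 arrays and the 3 arrays as a further term of the model, 1, 70 and 59 of the lower genes were called, against 1.03%, 9.71% and 6.81% of all genes.

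The group means of the lower genes moved as well. These genes were chosen for low values in control C, which lower the control mean, so a rise with perifosine follows from the choice. Over the 545 lower genes the median log2 change with perifosine was 0.30 with 12 arrays. Of the 545, 510 were above 0, beside 9340 of all 18852 genes. Without the 3 arrays the median was -0.05. For sorafenib it was -0.12 with and 0.03 without them, and for the combination -0.09 and -0.06. Over all genes, 56, 425 and 343 were called with 12 arrays and 293, 876 and 1112 with 9, of which 56, 355 and 321 were called in both. The 3 arrays were chosen for standing apart from their mates. Leaving them out, or giving them a term, therefore narrows the residual of many genes, and nothing is read from the rise of these counts.

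The 3 arrays still carried the drug response measured in the other arrays. Of the 876 genes called for sorafenib in the 9 other arrays, 744, or 84.9%, had the same sign in sorafenib B minus control C. Of the 75 among them that changed at least 2-fold, 74 had the same sign. The genes that rose had a median log2 change of 0.65 in the 9-array fit and a median difference of 0.73 between sorafenib B and control C, and those that fell had -0.64 and -0.66. Of the 1112 genes called for the combination, 1056, or 94.96%, had the same sign in combination A minus control C, and 87 of 90 did among those changed at least 2-fold. Their medians were 0.65 and 0.60 upward, and -0.62 and -0.48 downward. Both differences rest on 1 array a group and share control C, and they are given without a test.

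Among single genes, DDIT4, an inhibitor of mTORC1 signalling that rises under stress, read 3044, 2143 and 2379 in the control arrays, 14386, 10763 and 11384 in the sorafenib arrays, and 16634, 18654 and 19775 in the combination arrays. The groups did not overlap, and the arrays that stood apart lay with their mates. In the 9-array fit DDIT4 rose by 2.33 on the log2 scale with sorafenib (SE 0.16, limma adjusted p = 2.08e-05), and sorafenib B minus control C was 2.18. ESM1, a secreted proteoglycan of endothelial cells, fell by 3.48 with sorafenib (SE 0.13, limma adjusted p = 3.05e-08), and the difference between those 2 arrays was -3.61. The control arrays of ESM1 read 14818, 15511 and 20903, and its sorafenib arrays 1438, 1714 and 1291. The 9-array fit leaves out arrays chosen for standing apart from their mates, so its p-values may be too small. With all 12 arrays the limma adjusted p was 3.06e-05 for DDIT4 and 6.52e-06 for ESM1.

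OLFML2A rose by 2.17 with sorafenib against an inside difference of 2.88, ASNS, the asparagine synthetase, by 1.86 against 1.62, MIR503HG by 1.84 against 1.58, and ABCC3, an efflux transporter, by 1.83 against 1.99. KRTAP4-7 fell by 1.60 against -1.57, CYP1B1 by 1.60 against -0.93, SPHK1 by 1.45 against -2.03, and PTGS2 by 1.44 against -1.05. An inside difference is sorafenib B minus control C, as above. For the combination the 5 largest rises were the same genes. Its 5 largest falls held ANKRD37 in place of PTGS2. ANKRD37 fell by 1.44 in the 9-array fit (SE 0.18, limma adjusted p = 0.0010), while combination A minus control C was -2.14. With 12 arrays its SE was 0.47 and its limma adjusted p 0.11, so this call rests on leaving the 3 arrays out. Of the 33 lower genes called for sorafenib in the 9 arrays, 23 had the same sign in sorafenib B minus control C. Of the 50 called for the combination, 47 had the same sign in combination A minus control C.

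**Figure D5:**
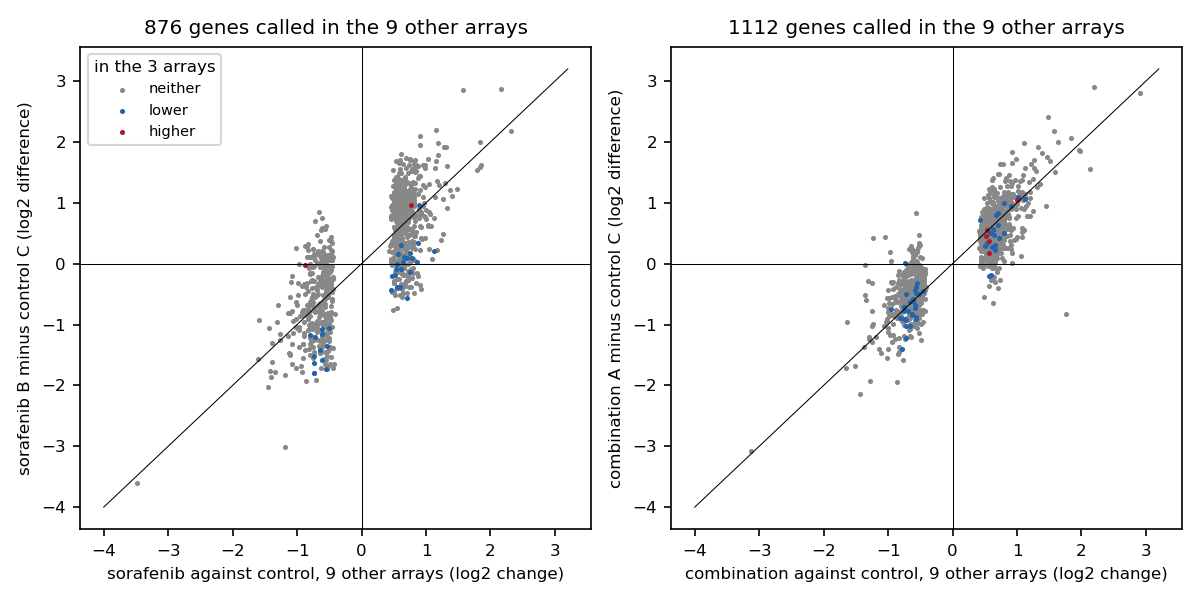
Log2 difference between 2 of the arrays that stood apart against the log2 change in the 9 other arrays, 1 point per gene called in those 9, for sorafenib (left, 876 genes) and the combination (right, 1112 genes), with the line of equality. Most points lie in the lower left and the upper right, with the lower genes in blue and the higher genes in red.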

How the data were processed

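RNA of 12 HD-MyZ samples was labelled and hybridised to Illumina arrays. The authors deposited intensity values on a linear scale, and BeadStudio is named in the submitters' processing notes, its version and settings being not given in the sources used here. Once sorted, the columns of the deposited table differ by at most 2.34%, and its lowest value is 170. The arrays thus share nearly the same distribution, so low values of some genes in an array come with higher values of others. The part of this in the deviations above 0 was not tested. A table of signals before normalization has 12 columns that match no sample's labels and were not used.

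From there, log2 of the deposited intensities was taken, with neither normalization nor background correction nor a filter added. Of 48803 probes, 28098 had 1 gene symbol in the platform annotation, 13 several and 20692 none. The probe with the highest mean stood for each of 18852 genes (6132 had more than 1 probe). Symbols were checked against RefSeq GRCh38.p14, which also gave RNA classes and promoter sequences. The comparisons of groups used limma 3.58.1 under R 4.3.3 (8 residual degrees of freedom with 12 arrays, 5 with 9), Benjamini-Hochberg threshold 0.05, checked on simulated data. The number of arrays limits the precision.

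Genes were named by a rule: the 12 lowest and 12 highest by mean deviation without placeholder symbols, up to 4 lower or higher members of any list in which these made up 25% or more, all measured metallothioneins, and the 5 largest rises and falls called in 9 arrays for sorafenib and the combination. Other genes were named after their values were seen. The arrays, the 43 gene lists (1010 entries, 941 measured) and the tests were chosen with earlier results of these data known. The main model did not pair samples by their letters. Correlations of same-lettered deviations from the group means ran from -0.57 to 0.49 over 18 pairs. The deviating arrays carry different letters and enter these means, so the correlations cannot show whether letters pair the samples.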

Additional observations from a re-analysis of the deposited data

How the results depend on the processing

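With 1 choice changed at a time, the 545 lower genes became 221 at 2-fold and 1018 at a log2 difference of 0.32, and the 43 higher genes 0 and 748. The higher genes became 82 after normexp background correction and 22 with the mean over probes. Leaving out 1 array gave 502 to 788 lower and 32 to 215 higher genes. The upper ends came without control C and without combination A in that order, where the counts can only rise. Perifosine calls, 56 with 12 arrays, became 293 with 9 arrays, 194 with the 3 arrays as a term, 126 with the 2 groups alone and 29 after normexp. Sorafenib calls, 425, became 876, 1831, 10 and 234 in that order. Combination calls, 343, became 1112 with 9 arrays, 1283 with the term and 202 after normexp. The same-sign shares of the drug response became 91.5% for sorafenib and 98.4% for the combination after normexp. The 3 arrays were chosen for standing apart, so rises of the calls with 9 arrays or with the term can follow from the choice. Other causes were not tested.

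Leaving out 1 array gave 11 to 155 perifosine, 111 to 570 sorafenib and 89 to 1046 combination calls. The highest perifosine and combination counts came without sorafenib B. Counts lower than with 12 arrays by over 1.5 times came for perifosine without control A, B or C or any perifosine array, for sorafenib without control A, B or C, and for the combination without any 1 control or combination array. With the replicate letter as a block the counts were 37, 335 and 274, the block moving the first by over 1.5 times, and 0 of the lower genes were called.

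Reversed values were the mean deviation of MT1B, near 0, between -0.128 without sorafenib B and 0.0708 without combination A (-0.0136 without control A, -0.00404 without sorafenib A and -0.0219 without combination C), and the median of mitochondrial import, between -0.252 without combination A and 0.0351 without sorafenib B. Of the other values, for single genes and lists, 1436 kept their direction within 1 SD and 80 moved further. Differences near the ceiling, and likely those near the background, are understated.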
